A study of Homo sapiens with 8 samples.

Results

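The 53 genes described here copy the genome once in each cell cycle. They are the subunits of the origin recognition complex, the licensing factors, the MCM helicase, the factors that fire origins, the replicative polymerases, the sliding clamp with its loader, the genes of single-strand binding and Okazaki fragment processing, 3 genes of deoxynucleotide supply and 4 regulators of the G1/S transition. They were taken by name, and all 53 passed the filter (10 counts or more in 2 or more of the 8 libraries), as did 13943 genes in the whole table. The libraries came from HepG2, an established human hepatocellular carcinoma line that the labels give as wild type, grown for 8 days in 1 of 2 formats. 4 libraries were 2D-primed, on conventional flat culture plastic, and 4 were 3D-primed, on an inert porous polystyrene scaffold (Alvetex), and both sets of cells were released with trypsin before poly(A) RNA was sequenced. The methods give a higher seeding density for the scaffold, so culture format and seeding density cannot be told apart. The labels do not say whether the 4 replicates of a format were separate cultures of this 1 line, so the p-values measure only the spread between these libraries. The comparison addressed here is whether the transcripts of the replication machinery differ between cells primed in the 2 formats.

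Replication origins are licensed in G1. The origin recognition complex (ORC) binds DNA, CDC6 and CDT1 join it, and a double hexamer of MCM2 to MCM7 is loaded as an inactive helicase, while geminin (GMNN) binds CDT1 and blocks further loading from S phase on. At the G1/S transition, cyclin E with its kinase and the DBF4-CDC7 kinase switch the helicase on by recruiting CDC45 and the GINS complex, and polymerases alpha, delta and epsilon then copy both strands with the help of the PCNA clamp. Many of these genes are transcribed under E2F factors in late G1, whereas the genes of mitosis are transcribed later in the cycle. In liver, most hepatocytes are quiescent, and HepG2 differs from them in cycling continuously.

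The libraries held 21599630 to 27844077 counts. Of 9 hepatocyte markers, all 9 were tested and abundant, with a lowest count of 5064 in any library (FGB), and 7 were higher and 2 lower in 3D-primed cells. Of 10 markers of other cell types, PTPRC, CD3E, COL3A1 and DCN reached at most 2 counts in any library. Of the 6 tested, CD68 (750 to 1827 counts a library, log2 fold change -1.08), CDH5 (-1.56) and COL1A1 (0.675 to 1.21 against 0 to 0.113 CPM) fell, PDGFRB (0.62) and VWF (0.62) rose and PECAM1 did not pass. The counts of all 10 summed to 1988 to 2267 in 2D-primed and 1212 to 1714 in 3D-primed libraries; their part in the results was not tested. The 2 formats differed broadly, with 63.9% of all genes tested called at an adjusted p below 0.05, 32.4% as higher and 31.6% as lower in 3D-primed cells (edgeR's quasi-likelihood test with Benjamini-Hochberg adjustment over all genes tested). All calls below are from that fit, and levels are CPM (each count as a share of its library, scaled to a fixed total and by TMM).

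Most replication genes were higher in 3D-primed cells, by small amounts. Of the 53 genes, 35 rose, 3 fell (CDT1, POLD4 and TK1) and 15 did not pass the test. The 38 called genes were 71.7% of the list, near the 63.9% of all genes tested. The 35 that rose and the 3 that fell stand beside 32.4% and 31.6% of all genes tested. The median log2 fold change was 0.26 over the 53 genes, where 50 values were above 0, and 0.013 over all genes tested. The changes ran from -0.39 for POLD4 to 0.94 for CDC6, and 0 of the 53 genes were both called and changed by at least 2-fold, which 11.9% of all genes tested were. The 4 libraries of each format did not overlap for 35 of the 53 genes (32 higher and 3 lower in 3D-primed), beside 59.8% of all genes tested. In bulk RNA, fewer cells in S phase and less of a transcript in each such cell cannot be told apart, and the same holds for a rise.

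**Figure D1:**
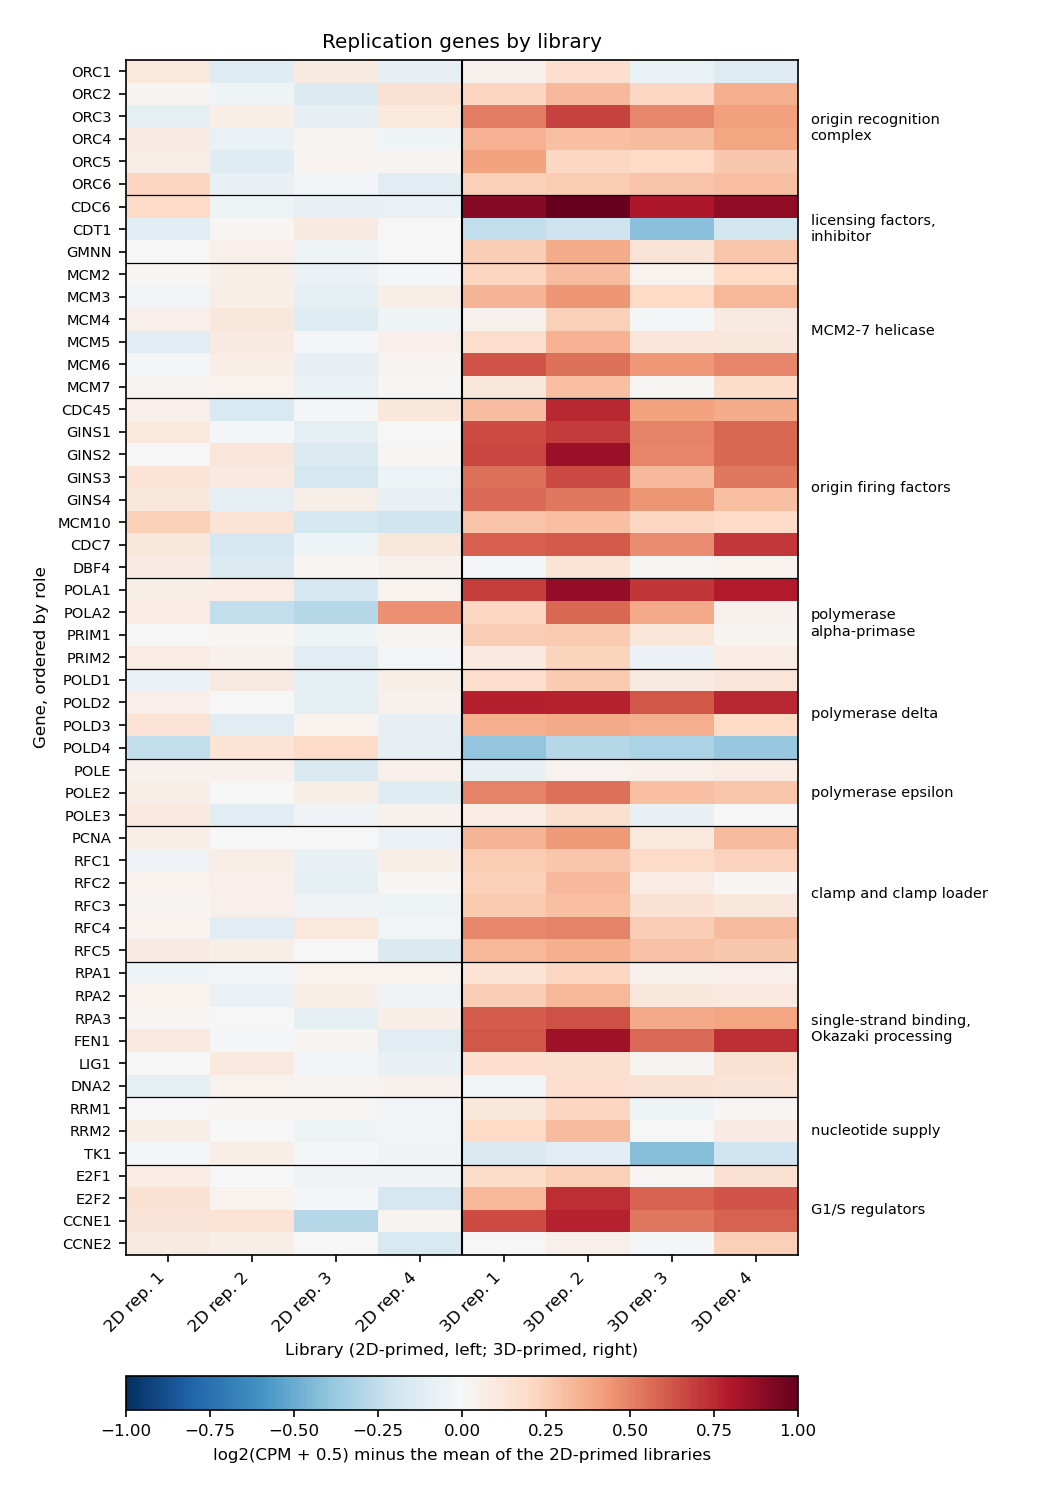
Level of each of the 53 genes in each of the 8 libraries, as log2(CPM + 0.5) minus the mean of the 2D-primed libraries. Rows are genes ordered by role and columns are libraries, with red for above and blue for below the 2D-primed mean; most rows are red in all 4 3D-primed columns, and the rows of CDT1, POLD4 and TK1 are blue there.

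The 3D-primed libraries were not equal across the list. Replicate 2 had the highest value of its group for 41 of the 53 genes, against 20.7% of all genes tested, and replicate 3 had the lowest for 31, against 29.6%, and the highest for 0. Summed over the 53 genes, the level was 1684 to 1769 CPM in the 2D-primed libraries and 2079, 2223, 1914 and 2045 CPM in 3D-primed replicates 1 to 4. All 4 3D-primed sums were above all 4 2D-primed sums. Without 3D-primed replicate 2 the fit called 29 of the genes higher, and without 3D-primed replicate 3 it called 38, while the same count of 3 called lower came from both fits.

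The start sites of these genes were searched for the letters of E2F sites, since E2F factors are the known common regulators of the group. RefSeq windows of 300 bases (250 before and 50 after the start, GRCh38.p14) were found for 45 of the 53 genes, and not for MCM4, MCM5, GINS4, POLD3, RPA2, RPA3, DNA2 and CCNE2. A window was counted where either strand held TTTCCCGC, TTTCGCGC, TTTGCCGC or TTTGGCGC, and such a match is a description of the sequence, not a shown binding site. 19 of the 45 windows held one (42.2%), beside 5.34% of the windows of all genes tested and 3.33% of all windows. By direction, the windows with a match were 15 of 30 among genes that rose, 1 of 3 among genes that fell (CDT1) and 3 of 12 among genes not called (POLA2, POLE and LIG1). Stretches of 30 bases around the match are given for a selection of the genes described below, 8 that rose, 1 that fell (CDT1) and 1 not called (POLE), on the strand of the gene and 5′ to 3′, with the matched letters in capitals and distances to the first matched base.
ORC3, chr6:87590112-87590141, plus strand, 12 bases before the start: cgcgagggcgcGCGGGAAAtcccgagtgca
CDC6, chr17:40287875-40287904, plus strand, from base 8 after the start: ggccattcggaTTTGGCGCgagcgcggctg
MCM2, chr3:127598402-127598431, plus strand, from base 3 after the start: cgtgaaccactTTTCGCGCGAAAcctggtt
GINS2, chr16:85688967-85688996, minus strand, 31 bases before the start: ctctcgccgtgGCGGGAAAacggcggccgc
POLA1, chrX:24693770-24693799, plus strand, 137 bases before the start: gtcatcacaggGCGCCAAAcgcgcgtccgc
POLE2, chr14:49688201-49688230, minus strand, 5 bases before the start: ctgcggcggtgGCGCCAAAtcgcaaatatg
PCNA, chr20:5126663-5126692, minus strand, 59 bases before the start: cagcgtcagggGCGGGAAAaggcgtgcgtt
E2F2, chr1:23531257-23531286, minus strand, 42 bases before the start: gcggcacgacgTTTGGCGCtaaaaaaaaaa
CDT1, chr16:88803743-88803772, plus strand, 35 bases before the start: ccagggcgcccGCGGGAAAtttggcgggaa
POLE, chr12:132687342-132687371, minus strand, 18 bases before the start: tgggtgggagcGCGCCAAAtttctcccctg

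MCM6 had the most matches of the 45 windows, 4 in all, and the 250 bases before its start are given whole. The matches lie in a pair of copies, each a match on the gene's strand overlapping a match on the other strand, with first bases at 152 and 148 and at 90 and 86 bases before the start.
MCM6, chr2:135876444-135876693, minus strand: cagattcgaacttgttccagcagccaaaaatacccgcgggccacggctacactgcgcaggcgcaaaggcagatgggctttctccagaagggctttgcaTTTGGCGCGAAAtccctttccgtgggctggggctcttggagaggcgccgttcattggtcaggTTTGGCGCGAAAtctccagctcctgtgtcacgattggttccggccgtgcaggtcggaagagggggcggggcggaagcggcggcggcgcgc

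2 other short elements were counted in the same windows on both strands. TTTGAA, the core of the cell cycle homology region known from promoters of mitosis genes, was in 2 of the 45 replication windows (4.44%), beside 9.76% for all genes tested and 20 of 26 windows of mitosis genes (76.9%). CCAAT, the core letters of NF-Y sites, was in 24 of 45 replication windows (53.3%), 36.7% of those of all genes tested and 21 of 26 of mitosis genes (80.8%). The E2F letters were in 3 of the 26 windows of mitosis genes (11.5%). No motif searched is contained in another.

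The origin recognition complex, which marks the places where replication can begin, was higher in 3D-primed cells in 5 of its 6 subunits. ORC3 rose most. It was at 12.1, 13.5, 12.2 and 13.9 CPM in the 2D-primed libraries and at 18.7, 20.99, 18.3 and 17.4 CPM in the 3D-primed ones. The lowest 3D-primed library was thus above the highest 2D-primed library, and the log2 fold change was 0.54 ± 0.074 (SE), a 1.45-fold rise (adjusted p = 0.0001). ORC2, ORC4, ORC5 and ORC6 rose by log2 fold changes of 0.28, 0.34, 0.28 and 0.27, with no overlap of the groups for any of them. ORC1, the subunit that binds CDC6 and in human cells is degraded after G1, is the one that did not pass. Its level was 15.5, 13.2, 15.3 and 13.5 CPM across the 2D-primed and 14.8, 16.2, 13.7 and 13.1 CPM in 3D-primed libraries. The 2 sets of ORC1 values overlapped fully, with a log2 fold change of 0.002 ± 0.083 (SE) whose sign turned in other settings (to -0.008 with DESeq2).

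The transcripts of the licensing factors and of their inhibitor all changed, and not in 1 direction. The libraries measure RNA, and neither protein levels nor MCM loading was measured. CDC6 (ENSG00000094804, chr17:40287879-40304657), the ATPase that completes the loader, had the largest rise of the 53 genes. It was at 29.3, 24.6, 24.3 and 24.5 CPM in the 2D-primed libraries and at 48.6, 55.3, 45.2 and 47.8 CPM in the 3D-primed ones. All 4 3D-primed values were well above all 2D-primed values, for a log2 fold change of 0.94 ± 0.077 (SE), which is 1.92-fold (adjusted p = 2.7e-06). CDT1 (ENSG00000167513, chr16:88803789-88809258), the second loading factor, went the other way, with 62.9, 68.8, 72.0 and 67.6 CPM across the 2D-primed and 57.0, 58.5, 50.6 and 59.5 CPM in 3D-primed libraries. These groups did not overlap either, and CDT1 fell by 0.27 ± 0.059 (SE) on the log2 scale, that is by 16.9% (adjusted p = 0.0026). GMNN, the inhibitor of CDT1, rose from 44.7, 46.5, 43.1 and 44.8 CPM to 53.1, 58.2, 48.9 and 54.4 CPM. Every 3D-primed value of GMNN exceeded every 2D-primed one, and the change was 1.20-fold (adjusted p = 0.0016).

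The MCM2 to MCM7 subunits form 1 ring with a single copy of each, and 5 of the 6 rose. MCM6 rose most, from 22.5, 23.6, 21.3 and 23.1 CPM to 35.2, 33.3, 30.7 and 31.96 CPM. The groups lay apart by more than the range within either, and the log2 fold change was 0.54 ± 0.055 (SE), or 1.45-fold (adjusted p = 1.2e-05). MCM3 followed at 0.33, and MCM2, MCM5 and MCM7 rose by 0.19, 0.19 and 0.16 on the log2 scale with adjusted p of 0.013, 0.022 and 0.036. The 2 formats overlapped for MCM2 and MCM7, and MCM4 did not pass (0.090 ± 0.065 SE, adjusted p = 0.25). Per kilobase of canonical transcript, the level of MCM6 was the lowest of the ring in both formats, at 6.03 ± 0.270 (2D-primed) against 8.73 ± 0.505 (3D-primed) CPM per kb (SD, n = 4). MCM3 had the highest level per kilobase, at 46.8 (2D-primed) against 58.8 (3D-primed), followed by MCM7. Within this ring, the subunit with the lowest transcript level per length was therefore the one with the largest rise. The other sets compared on that scale did not show this in 2D-primed cells. There the lowest were ORC5, CDC7 (firing factors) and RFC5 (clamp loader), whereas ORC3, GINS2 and RFC4 rose most.

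**Figure D2:**
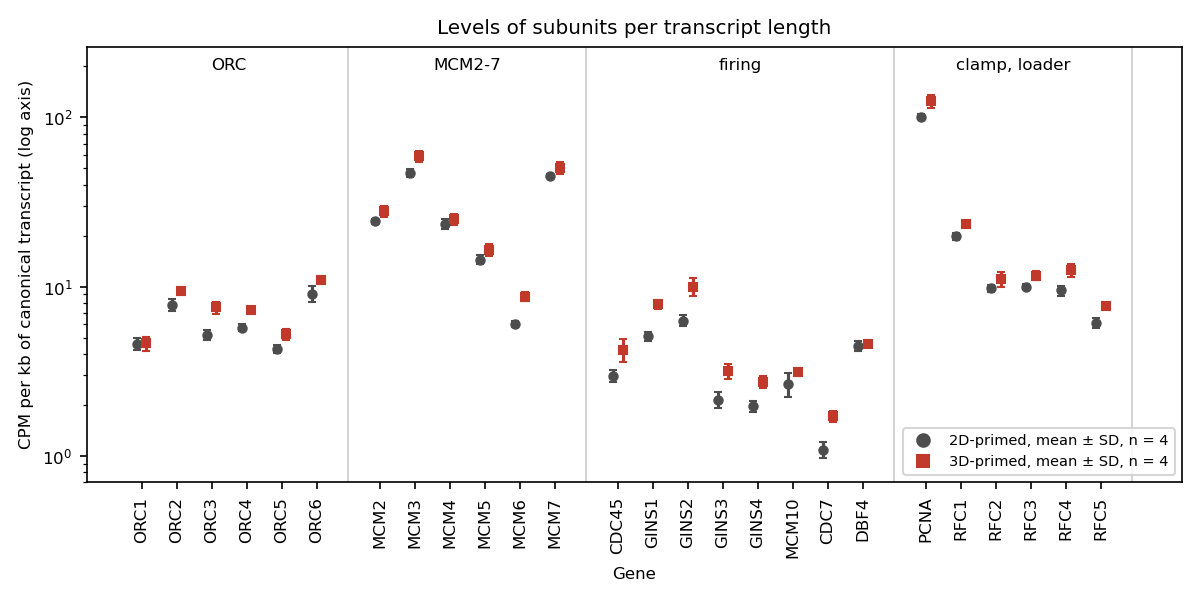
Level per transcript length (CPM per kb of the canonical transcript, log axis) of the ORC subunits, the MCM ring, the firing factors and the clamp with its loader. Points are means and bars are SD over 4 libraries; MCM6 is the lowest of the ring in both formats and PCNA the highest of the genes shown.

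Genes that turn the loaded ring into a working helicase had the highest median change of the 11 roles, 0.53 on the log2 scale, and 6 of 8 rose. GINS2, a subunit of the GINS clamp that holds the helicase together with CDC45, rose most. It was at 16.5, 18.0, 15.0 and 16.8 CPM across the 2D-primed and at 26.6, 30.5, 23.3 and 24.9 CPM in 3D-primed libraries. The groups were apart, with a log2 fold change of 0.67 ± 0.087 (SE), or 1.59-fold (adjusted p = 7.3e-05). The other GINS subunits rose by 0.62 (GINS1), 0.56 (GINS3) and 0.49 (GINS4), and CDC45 rose by 0.50. MCM10, which helps the helicase start to unwind, had a log2 fold change of 0.24 ± 0.10 (SE) and did not pass (adjusted p = 0.054).

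The kinase that fires origins has a catalytic subunit, CDC7, and an activator, DBF4, and they differed. CDC7 was at 3.803, 3.03, 3.34 and 3.798 CPM across the 2D-primed and at 5.51, 5.58, 5.02 and 6.00 CPM in 3D-primed libraries. The groups of CDC7 were apart, at 1.58-fold (adjusted p = 0.00048). DBF4 was at 17.3, 14.7, 16.4 and 16.8 CPM across the 2D-primed and at 16.1, 17.9, 16.4 and 16.7 CPM in 3D-primed libraries. These values overlapped, with a log2 fold change of 0.040 ± 0.064 (SE) and an adjusted p of 0.60. Per kilobase, the DBF4 level was 4.47 CPM per kb in 2D-primed cells, where that of CDC7 was 1.09. Exons of DBF4 overlap those of SLC25A40 on the opposite strand over 145 bases, and whether the counting used the strand of the reads is not given in the sources used here.

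Polymerase alpha with its primase lays down the RNA-DNA primers, and its catalytic subunit changed most. POLA1 was at 13.9, 14.1, 11.8 and 13.6 CPM across the 2D-primed and at 21.8, 24.9, 22.2 and 23.4 CPM in 3D-primed libraries. Every 3D-primed value exceeded every 2D-primed one by a wide margin, and the log2 fold change was 0.79 ± 0.071 (SE), or 1.73-fold (adjusted p = 5.2e-06). The primase subunits changed less, with 0.17 for PRIM1 (adjusted p = 0.034), whose groups overlapped, and 0.089 for PRIM2, which did not pass. POLA2, the regulatory subunit, did not pass (0.31 ± 0.20 SE, adjusted p = 0.19), and its 2D-primed values ran from 3.30 to 5.87 CPM. Its exons share 2012 bases on the same strand with ENSG00000285816, which had 91.5% as many counts as POLA2, so that the counts could be divided between them in different ways. Summed with that gene, a sum made after the data were seen, the level was 7.30 ± 1.21 CPM across the 2D-primed and 10.8 ± 1.32 CPM in 3D-primed libraries (SD, n = 4). The groups of the sum did not overlap (two-sided exact permutation p = 0.029, the smallest that 4 against 4 can give).

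Polymerase delta, which copies the lagging strand, changed in all 4 subunits. POLD2, an accessory subunit, was at 40.5, 39.2, 36.5 and 40.3 CPM across the 2D-primed and at 67.2, 66.9, 60.3 and 66.3 CPM in 3D-primed libraries. The groups lay farther apart than the width of either, with a log2 fold change of 0.74 ± 0.050 (SE), or 1.67-fold, and the smallest adjusted p of the 53 genes (7.4e-07). The catalytic subunit POLD1 changed less. It was at 27.1, 30.1, 26.5 and 29.5 CPM across the 2D-primed and at 31.9, 34.0, 30.2 and 30.8 CPM in 3D-primed libraries, so that the highest 2D-primed and the lowest 3D-primed library were nearly level (12.1% higher, adjusted p = 0.028). POLD3 rose by 0.34 on the log2 scale. POLD4 (ENSG00000175482, chr11:67350772-67356972), the smallest subunit, fell from 5.82, 7.78, 8.10 and 6.58 CPM to 5.21, 5.67, 5.52 and 5.28 CPM. The highest 3D-primed value of POLD4 was just below the lowest 2D-primed one, and the change was -0.39 ± 0.11 (SE; adjusted p = 0.012), the largest fall of the 53 genes. POLD4 shares 650 exonic bases on the same strand with ENSG00000256514, and the counts of both together overlapped between formats (11.5 ± 0.856 against 9.93 ± 0.562 CPM, SD, n = 4, two-sided exact permutation p = 0.057).

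Polymerase epsilon, which copies the leading strand, changed in 1 of its 3 subunits in the list. POLE4, a further subunit outside the list that is given below with the fork factors, fell (log2 fold change -0.38, adjusted p = 0.00032). POLE2 was at 3.99, 3.804, 3.99 and 3.46 CPM across the 2D-primed and at 5.58, 5.80, 4.80 and 4.73 CPM in 3D-primed libraries. The groups of POLE2 were apart, at 1.37-fold (adjusted p = 0.0045). The catalytic subunit POLE was at 35.2, 35.2, 30.9 and 35.5 CPM across the 2D-primed and at 32.5, 35.1, 35.4 and 36.1 CPM in 3D-primed libraries. 3 of the 2D-primed values lay within the 3D-primed range, and the log2 fold change was 0.024 ± 0.055 (SE; adjusted p = 0.73). POLE3, a histone-fold subunit, was at 0.041 ± 0.062 (SE; adjusted p = 0.58).

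**Figure D3:**
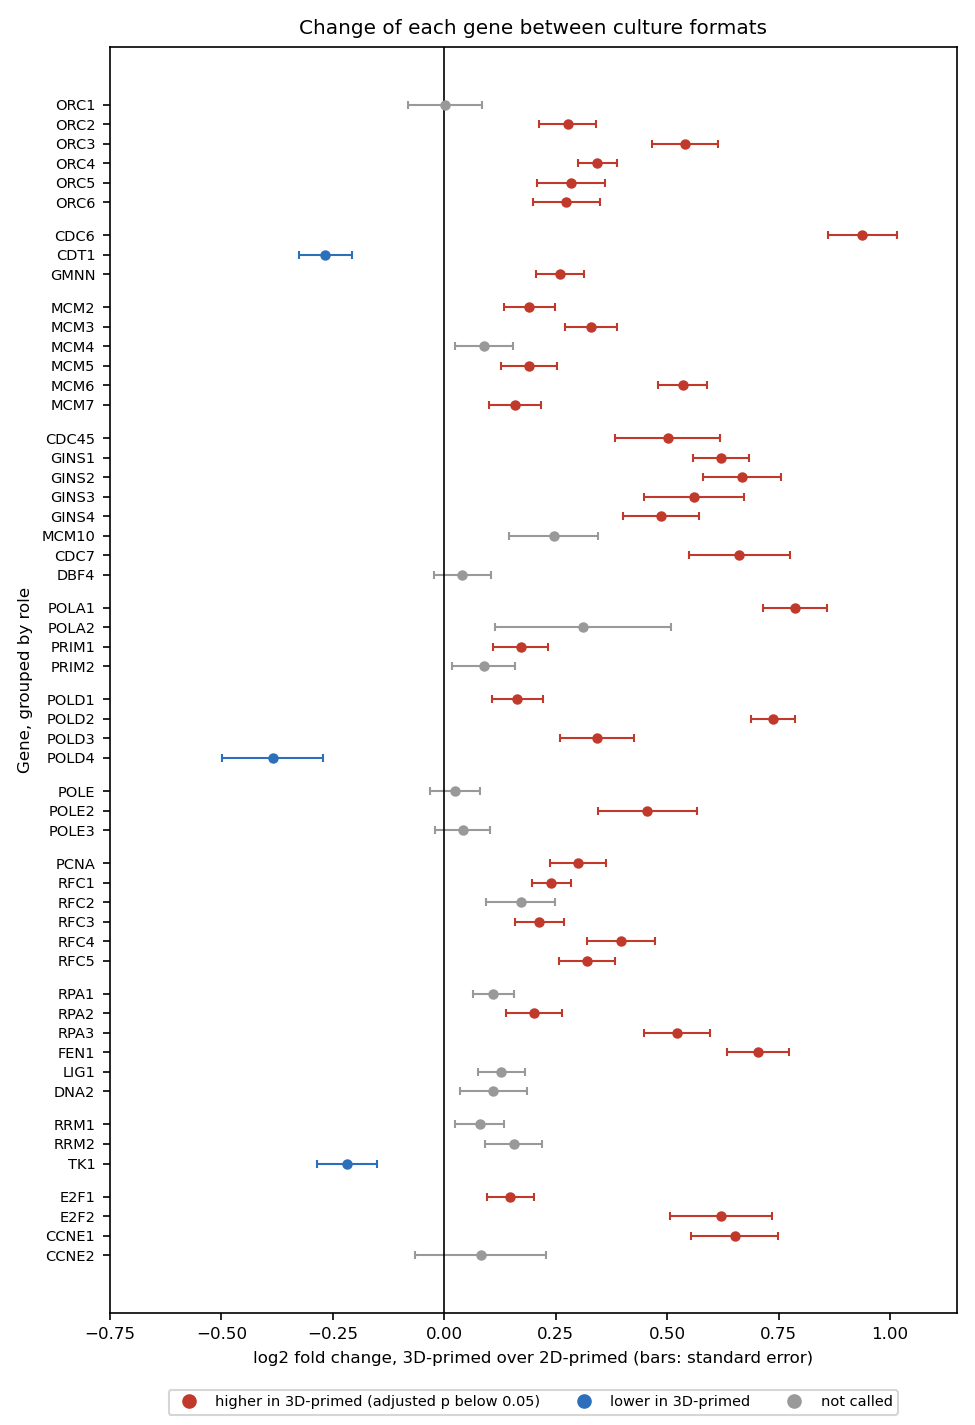
Log2 fold change of each of the 53 genes, 3D-primed over 2D-primed, grouped by role. Points are estimates of the fit and bars are standard errors; the 35 genes that rose are red, the 3 that fell (CDT1, POLD4 and TK1) are blue, and the 15 that did not pass are grey.

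The sliding clamp and 4 of the 5 subunits of its loader were higher in 3D-primed cells. PCNA, the ring that tethers polymerases to DNA, had the highest level per length of the genes compared on that scale, at 101 ± 3.74 (2D-primed) against 124 ± 11.2 (3D-primed) CPM per kb (SD, n = 4). Its libraries were at 135, 129, 128 and 123 CPM across the 2D-primed and at 163, 173, 139 and 160 CPM in 3D-primed cells. The groups did not overlap, though 3D-primed replicate 3 was only just above the highest 2D-primed library, and the change was 1.23-fold (adjusted p = 0.0018). RFC4 rose most among the loader subunits, from 13.3, 11.9, 13.96 and 12.7 CPM to 18.2, 18.4, 15.4 and 16.2 CPM. The RFC4 groups were also apart, at 1.32-fold (adjusted p = 0.0011). RFC1, RFC3 and RFC5 rose by log2 fold changes of 0.24, 0.21 and 0.32, and RFC2 did not pass (0.17 ± 0.077 SE, adjusted p = 0.074).

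Among the genes of single-strand binding and Okazaki fragment processing, 3 of 6 rose. FEN1, the nuclease that removes the flap ahead of each Okazaki fragment, was at 23.5, 21.7, 22.3 and 20.3 CPM across the 2D-primed and at 33.9, 39.8, 32.7 and 36.8 CPM in 3D-primed libraries. All 3D-primed values of FEN1 were above all 2D-primed values, with a log2 fold change of 0.70 ± 0.070 (SE), or 1.63-fold (adjusted p = 9.9e-06). LIG1, the ligase that seals the same fragments, and DNA2, a nuclease that trims long flaps, did not pass, at 0.13 (adjusted p = 0.056) and 0.11 (adjusted p = 0.22). The subunits of RPA, the single-strand binding trimer, differed in size of change. RPA3 rose by 0.52 and RPA2 by 0.20, and the largest subunit RPA1 was at 0.11 and did not pass (adjusted p = 0.061), although its groups did not overlap.

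Nucleotide supply was the role with no rise. TK1, which salvages thymidine, was at 36.8, 39.0, 37.1 and 36.4 CPM across the 2D-primed and at 33.7, 34.7, 27.6 and 32.4 CPM in 3D-primed libraries. Every 3D-primed library was lower, and TK1 fell by 0.22 ± 0.068 (SE) on the log2 scale, that is to 0.860 times its 2D-primed level (adjusted p = 0.016). RRM2, the S-phase subunit of ribonucleotide reductase, was at 97.4, 93.2, 89.7 and 91.2 CPM across the 2D-primed and at 107, 116, 93.2 and 98.4 CPM in 3D-primed libraries. The RRM2 values overlapped, because 3D-primed replicate 3 lay among the 2D-primed libraries, and the adjusted p was 0.055 at a log2 fold change of 0.16. RRM1, the large subunit, was at 47.9, 48.0, 48.1 and 46.9 CPM across the 2D-primed and at 51.7, 55.6, 46.3 and 48.2 CPM in 3D-primed libraries. These overlapped too, at a log2 fold change of 0.079 (adjusted p = 0.23).

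Of the 4 regulators of the G1/S transition, 3 rose. CCNE1, a cyclin that drives entry into S phase, was at 11.96, 12.02, 8.87 and 11.1 CPM across the 2D-primed and at 17.5, 18.95, 15.9 and 16.7 CPM in 3D-primed libraries. The CCNE1 groups were apart, with a log2 fold change of 0.65 ± 0.098 (SE), or 1.57-fold (adjusted p = 0.0002). CCNE2, its close relative, was at 2.25, 2.20, 2.08 and 1.81 CPM across the 2D-primed and at 2.08, 2.17, 2.04 and 2.54 CPM in 3D-primed libraries. This is 43 to 64 counts a library, at which the change (0.082 ± 0.15 SE, adjusted p = 0.64) is known less precisely than that of CCNE1, and 1629 of its exonic bases overlap INTS8 on the opposite strand. E2F2 rose from 5.82, 5.32, 5.09 and 4.56 CPM to 6.64, 8.99, 8.06 and 8.26 CPM. Its groups did not overlap, at 1.54-fold (adjusted p = 0.00077). E2F1 was at 42.1, 39.7, 38.8 and 38.8 CPM across the 2D-primed and at 45.2, 47.0, 40.1 and 44.4 CPM in 3D-primed libraries, a 1.11-fold rise (adjusted p = 0.031) with 3D-primed replicate 3 among the 2D-primed values.

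Ratios of 2 genes within a library do not depend on how libraries are scaled, and 8 pairs with opposed or shared roles were compared (two-sided exact permutation tests of 4 against 4 libraries, Benjamini-Hochberg adjusted over the 8 pairs). The genes of the pairs were chosen with earlier results of these data known. Each ratio restates the changes of its 2 genes, so these tests add no separate support. For 6 pairs the formats did not overlap, each with an exact permutation p of 0.029 (adjusted 0.038), the smallest p that 4 against 4 can give. The CDT1 count over that of its inhibitor GMNN, as log2, was 0.49, 0.56, 0.74 and 0.59 in 2D-primed and 0.10, 0.008, 0.049 and 0.13 in 3D-primed libraries. The ratio was lower in every 3D-primed than in every 2D-primed library, a difference of -0.52. Per kilobase of canonical transcript, the level of GMNN was above that of CDT1 in both formats, at 35.5 against 25.4 CPM per kb (2D-primed) and 42.5 against 21.2 CPM per kb (3D-primed). CDC6 over ORC1, ATPases of 1 assembly, was higher by 0.94 in 3D-primed libraries. DBF4 over CDC7 was lower by a difference of -0.62, and E2F1 over E2F2 by a difference of -0.47. CCNE1 over CCNE2 was higher by 0.58. Its nearest libraries were at 2.599 (2D-primed replicate 4) and 2.705 (3D-primed replicate 4), and CCNE2 had only 43 to 64 counts a library. The pair with the largest difference was PCNA over MKI67, a marker of all cycling phases that peaks in G2 and M. Its log2 ratio was -0.30, -0.23, -0.31 and -0.23 in 2D-primed and 0.89, 0.76, 0.59 and 0.75 in 3D-primed libraries, a difference of 1.01. The other 2 pairs overlapped, with differences of 0.075 for RRM2 over RRM1 (exact p = 0.057, adjusted p = 0.065) and 0.14 for POLD1 over POLE (exact p = 0.17, adjusted p = 0.17).

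**Figure D4:**
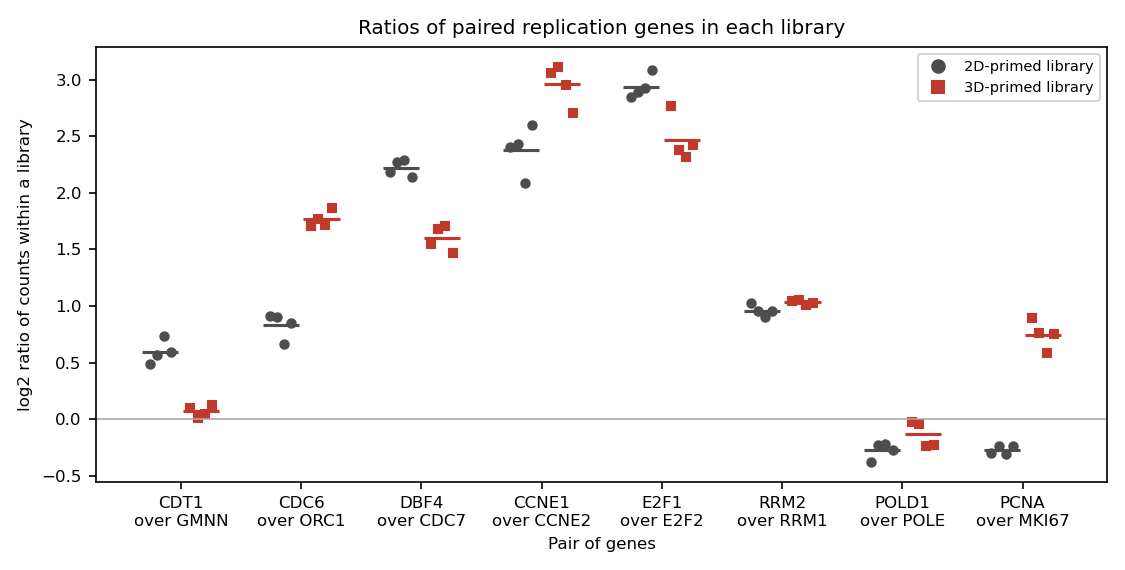
Log2 ratio of the counts of 2 genes within each library for the 8 pairs. Each point is 1 library, circles for 2D-primed and squares for 3D-primed, and short lines are group means; the formats are apart for every pair but RRM2 over RRM1 and POLD1 over POLE.

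Genes that act beside these 53 moved less uniformly. In 4 further lists of the pathway, 58 genes were tested, of which 26 rose and 11 fell (63.8% called, beside 63.9% of all genes tested). Among 22 further fork and origin firing factors, 9 rose and 4 fell, with a median log2 fold change of 0.14. CHTF8 (0.63, adjusted p = 1.1e-05) and RNASEH2B (0.61, adjusted p = 1.9e-05) rose, the latter a subunit of the nuclease that removes ribonucleotides from DNA. CHTF18, a subunit of the alternative clamp loader that also holds CHTF8 and DSCC1, fell (-0.73, adjusted p = 4.1e-05), and so did POLE4, the partner of POLE3 (-0.38, adjusted p = 0.00032). DSCC1, named after its values were seen, did not pass (0.41, adjusted p = 0.066).

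Of 8 genes of replication-coupled chromatin assembly, 5 rose and 0 fell, with a median of 0.42. ASF1A, a histone chaperone, rose from 15.9 to 17.1 CPM in the 2D-primed libraries to 30.8 to 34.3 CPM in the 3D-primed ones (0.98 on the log2 scale, adjusted p = 1.7e-07), and NASP, which holds the pool of soluble H3 and H4, rose by 0.64 (adjusted p = 2.2e-06). 12 further genes of deoxynucleotide metabolism were divided, with 5 higher, 4 lower and a median of -0.012. SAMHD1, which breaks deoxynucleotides down, rose by 0.70 (adjusted p = 3.3e-06). DCK, a salvage kinase, and RRM2B, the reductase subunit used outside S phase, fell, with log2 fold changes of -0.26 each (adjusted p = 0.00093 and 0.0018). Of 16 further E2F, pocket protein and S-phase kinase genes, 7 rose and 3 fell. SKP2, which directs the degradation of CDK inhibitors, rose by 0.97 (adjusted p = 1.3e-06) and E2F5 by 0.71 (adjusted p = 6.3e-06). FBXW7, which directs the degradation of cyclin E, and CCNA2, the cyclin of S and G2 phase, fell, with log2 fold changes of -0.56 (adjusted p = 3.1e-05) and -0.37 (adjusted p = 0.00013).

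The genes of mitosis moved the other way. Of 31 such genes, 23 fell, 1 rose (BIRC5, 0.20, adjusted p = 0.014) and 7 did not pass, with a median log2 fold change of -0.25, where 31.6% of all genes tested fell. ECT2, which acts at cytokinesis, fell from 103 to 120 CPM in the 2D-primed libraries to 34.9 to 37.2 CPM in the 3D-primed ones (-1.59, adjusted p = 2e-08), and ANLN, a scaffold of the contractile ring, fell as well (-0.90, adjusted p = 2.8e-07). MKI67 was at 166, 151, 159 and 145 CPM across the 2D-primed and at 87.7, 102, 92.6 and 95.2 CPM in 3D-primed libraries. No 3D-primed library reached the 2D-primed range of MKI67, and its log2 fold change was -0.72 (adjusted p = 2.3e-06). Summed over the 31 genes, the level was 2068 to 2215 CPM across the 2D-primed and 1517 to 1702 CPM in 3D-primed libraries. In the 3D-primed group, replicate 2 had the highest and replicate 3 the lowest sum of both the mitosis and the replication genes.

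**Figure D5:**
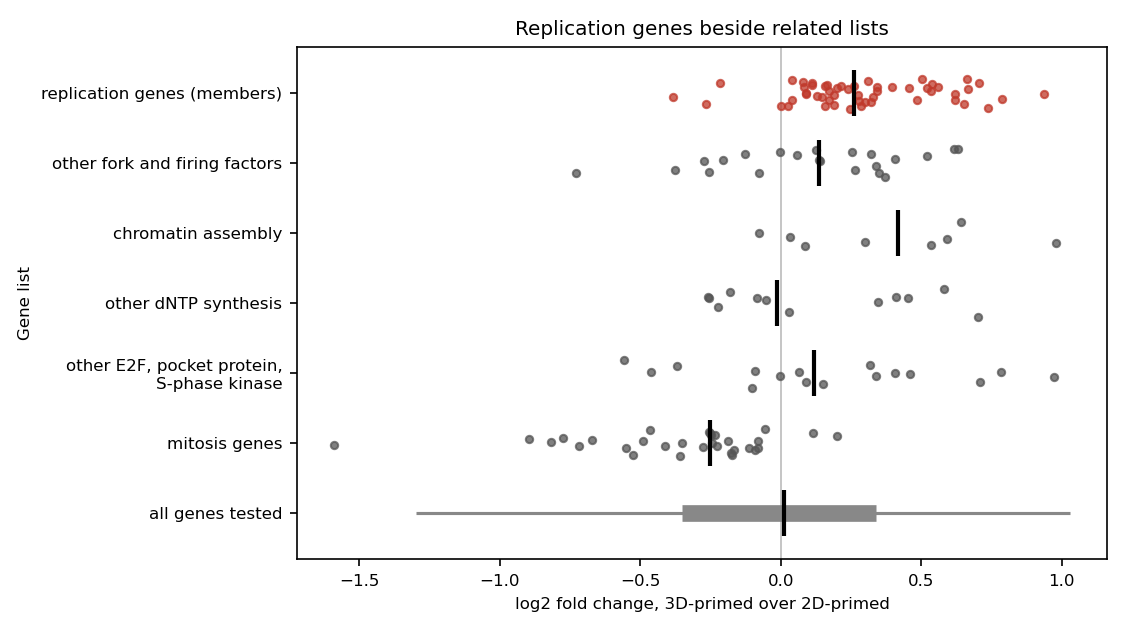
Log2 fold change, 3D-primed over 2D-primed, of the 53 replication genes, of the 4 further lists of the pathway and of 31 mitosis genes. Each point is 1 gene and the vertical bar of a row is its median (0.26 for the replication genes and -0.25 for the mitosis genes); the lowest row gives all genes tested, with a thick bar from the 25th to the 75th and a thin line from the 5th to the 95th percentile.

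Named pseudogenes of these genes had at most 2 counts in any library. FEN1 shares 49 exonic bases with FADS2 and PRIM1 139 with NACA on the same strand, and exons of ORC4, MCM7, GINS1, GINS2, RFC4, RFC5, RPA1, RPA3 and CCNE2 among others overlap a counted gene on the opposite strand. For these genes, reads from the shared bases could be given to either gene.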

How the data were processed

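The authors sequenced 4 2D-primed and 4 3D-primed libraries of HepG2, made with a directional poly(A) kit, estimated transcript abundance with Salmon against the Ensembl cDNA set of GRCh38, and summed it per gene with tximport. The authors then called genes with DESeq2 at an adjusted p below 0.05. The deposited values are estimated counts per gene. Whether tximport scaled them by length, and Salmon's library type, are not given in the sources used here. They were rounded to whole numbers.

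Gene symbols came from GENCODE (92.0% of 38032 identifiers and 97.5% of counts matched). Genes reaching 10 counts in 2 or more libraries were tested with edgeR 4.0.16 in R 4.3.3 (TMM, quasi-likelihood, ~ group, all 8 libraries), with Benjamini-Hochberg adjustment over 13943 genes and a threshold of 0.05. Of these steps, only the edgeR fit was also run on simulated counts. Those had a small part of the genes changed, equally up and down. The simulation therefore cannot show how the fit behaves where most genes are called, as here. Alternatives were RLE, upper-quartile and total-count scaling, DESeq2 1.42.0, limma-voom (limma 3.58.1), 3 other filters, each library left out, and the replicate number as a block. Within-library ratios used a prior count of 0.5. Levels per kb used the Ensembl canonical transcript. No 2 libraries of a format agreed within sampling noise.

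Every gene of the list is named with its change or range. Values of every library are given for the largest called rise and fall of each role and for the genes of the 8 pairs, and from each other list of the pathway the 2 called genes with the smallest p in each direction are named. 1 gene that this rule names is not reported here. The genes and lists were chosen with earlier results of these data known. Depth was 21599630 to 27844077 counts, and CCNE2 had the fewest counts of the list (43 to 64 a library). The standard error of the log2 fold change was largest for POLA2 (0.20), which had 79 to 154 counts, and was 0.15 for CCNE2. A planned search of protein sequences was not run.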

Additional observations from a re-analysis of the deposited data

Results flagged for a closer look

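In each format, the library farthest from the other 3 was tested for every replication gene by the ratio of its gap to the group's range (Dixon's test for 4 values). 7 of the 106 groups passed, and chance passes about 1 in 20. 2D-primed replicate 1 was high for CDC6, at 29.3 CPM where the others were at 24.3 to 24.6, and low for DNA2, at 7.33 against 8.06 to 8.14 CPM. 2D-primed replicate 3 was low for POLE, at 30.9 against 35.2 to 35.5 CPM, and 2D-primed replicate 4 was low for RRM1, at 46.9 against 47.9 to 48.1 CPM. 3D-primed replicate 3 was low for POLD2, at 60.3 against 66.3 to 67.2 CPM, and for LIG1, at 28.5 against 31.3 to 31.5 CPM. 3D-primed replicate 4 was low for POLD3, at 8.50 against 9.54 to 9.65 CPM. The 2 formats did not overlap for CDC6, POLD2 and POLD3.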

How the results depend on the processing

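Under 17 alternatives, 29 to 40 of the 53 genes were called higher and 3 were called lower in each. Leaving out 1 library gave 29 (without 3D-primed replicate 2) to 38 (without 3D-primed replicate 3) called higher, DESeq2 gave 32, and upper-quartile factors and total counts gave 40 each. Of the 38 called genes, 32 kept their call and direction under all 17. The call was lost by PRIM1 in 9 of the 17, E2F1 in 7, MCM7 in 6, POLD1 in 5, MCM5 in 3 and RPA2 in 2. PRIM1, POLD1 and E2F1 were not called with DESeq2, which the authors also used in an earlier version (adjusted p = 0.092, 0.058 and 0.059). Of the 15 genes not called, MCM10, POLA2, RFC2, RPA1, LIG1 and RRM2 were called in at least 1. Genes called over the whole table numbered 8357 to 9070, beside 8916. Upper-quartile factors moved the median log2 fold change of all genes from 0.013 to 0.064. No called gene turned direction. Among the uncalled, ORC1 (0.002) turned to -0.008 with RLE factors and with DESeq2, -0.001 with limma-voom, -0.005 with filterByExpr, -0.004 with 10 counts in all libraries, and ranged from -0.061 to 0.048 when 1 library was left out. In the same way, DBF4 ranged from -0.007 (without 2D-primed replicate 2) to 0.069, POLE from -0.024 (without 2D-primed replicate 3) to 0.049 and POLE3 from -0.006 (without 3D-primed replicate 2) to 0.073. The cause was not tested. The deviations of same-numbered libraries correlated at -0.044, -0.015, 0.088 and -0.0063, so these were not treated as pairs. With the replicate block 8490 genes were called, with 36 of the 53 higher and 3 lower, and not every library correlated best with its own number. Summing POLA2 and POLD4 with the genes that share their exons, chosen after seeing the data, gave log2 fold changes of 0.57 and -0.22. Depth limits CCNE2 (43 to 64 counts).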
